A study of Mus musculus with 2 samples.

Results

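The 10 glutathione S-transferases described here are Gsta1, Gsta3 and Gsta4 of the alpha class, Gstm1, Gstm2, Gstm3 and Gstm5 of the mu class, and Gstp1, Gstt1 and Gsto1 of the pi, theta and omega classes. They were taken by name, as every probe that the scanner files give to 1 of these symbols, and all 10 were found, on 17 probes, among 30163 named genes. Gene expression was measured at day 11 in cultures of bone marrow mononuclear cells, which include blood progenitors and several kinds of immune cell, from the femurs of C57/Bl6J mice aged 2 to 4 months, flushed in IMDM with 2% fetal bovine serum. The control group was an untreated culture labelled as the negative control, and the NYT group was a culture given ninjin'yoeito, a herbal drug, at a dose that no source used here states. One 1-colour array stands for each culture, so no comparison below can be checked against replicates or tested. No source used here says whether both cultures came from the same animals.

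Glutathione transferases join the thiol of glutathione to reactive, fat-soluble compounds, so that the products can be exported and broken down. The alpha, mu and pi enzymes are the main cytosolic forms and are known as genes that the transcription factor NRF2 can switch on when cells meet electrophiles, in liver above all. Omega enzymes act more like thiol reductases, and theta enzymes handle small halogenated compounds.

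Among the 8 members measured on both arrays, 4 were higher by 2-fold or more in the NYT culture (11.2% of all measured genes were) and 2 were lower by 2-fold or more (11.0%). Gsta3 was 13.0-fold higher, and Gstm3, Gstm1 and Gstm5 were 6.95-fold, 6.37-fold and 4.64-fold higher. Gstp1 was 3.23-fold lower, and Gstt1 was 6.13-fold lower by 1 of its probes. Gsta1, detected on the control array alone, was lower with NYT by at least 25.6-fold, or at least 6.71-fold with normexp background correction. Gstm2 and Gsto1 differed by less than 2-fold, and Gsta4 was in neither culture well above background.

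The array reads each gene through probes of 60 bases, and near relatives in this family share long runs of sequence, so the stretches that set relatives apart are shown first. Probes are printed 5′ to 3′ from the scanner files, and capitals mark the bases at which the aligned probes differ. The Gsta1 probe lies on chromosome 9 at 78090411 to 78090470 and the Gsta2 probe at 78178856 to 78178915 (mm9). They overlap without gaps over 50 bases, of which 46 are identical, and 30 of these bases are printed.
Gsta1: ctggcctctaatGgtttgcaattataaaaA
Gsta2: ctggcctctaatTgtttgcaattataaaaT
The pi class neighbours on chromosome 19 are also close, and 1 probe of Gstp1 (4035908 to 4036723, mm9) and 1 of Gstp2 (4040983 to 4041042) have 30 of 35 overlapping bases in common.
Gstp1: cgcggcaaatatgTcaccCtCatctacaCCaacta
Gstp2: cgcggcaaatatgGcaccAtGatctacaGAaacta
The detected Gstm3 probe aligns with probes of its relatives Gstm6 and Gstm7 on chromosome 3, with 32 of 55 bases the same in all 3.
Gstm3: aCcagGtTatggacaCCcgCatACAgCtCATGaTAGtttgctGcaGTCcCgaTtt
Gstm6: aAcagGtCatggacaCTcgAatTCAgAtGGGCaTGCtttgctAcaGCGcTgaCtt
Gstm7: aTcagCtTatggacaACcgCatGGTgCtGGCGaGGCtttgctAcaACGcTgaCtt
How far each probe binds the RNA of a relative was not tested, so separate values of close relatives are uncertain.

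The NYT array was dimmer, with a 75th percentile intensity of 728 against 1475 on the control array, and 57.7% of its probes were well above background against 62.2%. Levels are given as log2 intensity relative to each array's own 75th percentile, and differences as NYT minus control. Where a probe was printed on 10 spots and detected, the median SD of a difference of 1 spot on each array was 0.05 on the log2 scale, an error that covers spot noise and not cultures. The number of arrays limits the precision. Over the 16996 genes measured on both arrays, 1904 were called higher and 1868 lower at 2-fold, the shares given above, and the median difference was 0.29. These counts became 950 and 2359 after loess, 211 and 6190 without scaling, and 166 and 7485 when scaled to spike-in RNA, with median differences of -0.02, -0.73 and -0.89. The 8 members had a median difference of 1.59, which falls in the gap between Gstm2 at 0.97 and Gstm5 at 2.21 and so describes no single member. Fewer cells of a type and less RNA per cell cannot be told apart in such cultures, for this and every result below.

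**Figure D1:**
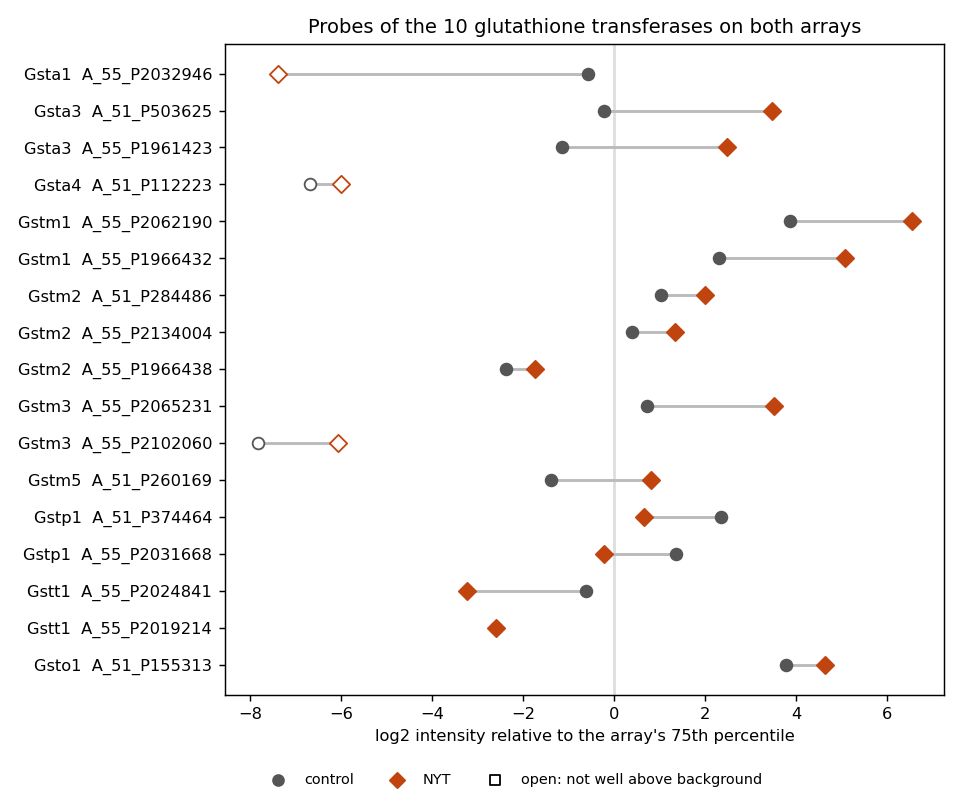
Levels of the 17 probes of the members on the control array (circles) and the NYT array (diamonds), as log2 intensity relative to the 75th percentile of the array, with open symbols for probes not well above background. The Gsta3 probes stand at -0.23 and -1.14 for the control and at 3.47 and 2.47 for NYT, whereas 1 Gstt1 probe is at -0.62 and -3.23 and the other at -2.60 on both arrays.

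The alpha class split in both directions. Gsta3, whose human counterpart also takes part in steroid synthesis, had an intensity of 1256 in the control and 8049.7 with NYT by 1 probe (chromosome 1, 21255189 to 21255248, mm9), a log2 difference of 3.70. Its other probe (21255043 to 21255102) went from 671 to 4035, a difference of 3.61, so both probes were higher on the NYT array and differed from each other by little more than the spot noise. Only 21 of the 16996 measured genes had a larger difference than Gsta3.
The first 30 bases of the Gsta3 probes are shown because this gene has the largest difference among the members measured on both arrays.
Gsta3 A_51_P503625: tgacgaggaacggccggatgctctctagtt
Gsta3 A_55_P1961423: attcaggcaactataagtacatagccccca

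Gsta1, a broad alpha class enzyme of liver and gut, went the other way. Its single probe read 996 in the control and 4.36 with NYT, where the lowest intensity well above background was 19.2. The NYT value is therefore below detection, and the bound of at least 25.6-fold (4.68 on the log2 scale) is taken against that lowest signal. Of all 30163 named genes, 2.42% were detected on the control array alone with a bound of at least 2-fold. Gsta2, not among the 10 members, whose probe shares most of its bases with that of Gsta1, read 156 and 23.8, a difference of -1.70. Gsta4, which detoxifies the lipid peroxidation product hydroxynonenal, was printed on 10 spots. Its spots ranged from 10.5 to 25.6 in the control, with 1 outlier spot left out, and from 5.02 to 15.9 on the NYT array, so its level was not measured in either culture.

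The mu class genes lie side by side on chromosome 3, and 3 of the 4 members were higher with NYT by more than 4-fold, while Gstm2 was under 2-fold. Gstm1, the most studied mu class enzyme, read 21502 in the control and 67647 with NYT by 1 probe, a difference of 2.67. The files place that probe on chromosome 5 (117082490 to 117082549, mm9), away from the cluster. The other Gstm1 probe, within the cluster at 107815595 to 107815654, read 7307 and 24605, a difference of 2.77. The probes thus gave nearly the same difference in spite of their listed positions.

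Gstm3 read 2438 and 8363 by a probe whose coordinates (107769290 to 107770549, mm9) span 1260 bases and so cross an intron, a difference of 2.80. A second Gstm3 probe (107766615 to 107766674) read 6.47 and 10.9, neither well above background. The value for Gstm3 therefore rests on 1 probe out of 2. Gstm5, a mu class form best known from brain and testis, read 561 and 1284.0 by its single probe, a difference of 2.21. Among all measured genes, 67 had a larger difference than Gstm3, 79 than Gstm1 and 154 than Gstm5.

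Gstm2, the neighbour of Gstm3, had 3 detected probes (107784622 to 107784681, 107784675 to 107784734 and 107784948 to 107785007). They differed by 0.97, 0.96 and 0.64, all in the same direction and all under 2-fold. Its intensities before scaling were nearly equal, 3010 against 2920 by the brightest probe, so the sign of its difference comes from the scaling: it was -0.04 without scaling and -0.20 when scaled to spike-in RNA. Of the other mu genes in the cluster, Gstm4 differed by 2.63 by 1 probe and 1.57 by the other. Gstm6 and Gstm7 were each well above background on the NYT array alone, by 1 of their 5 and 3 probes, at intensities of 24.3 and 23.8 that leave a bound under 2-fold. The Gstm6 and Gstm7 probes aligned with Gstm3 above read 7.22 and 18.8 in the control and 13.6 and 23.8 with NYT.

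**Figure D2:**
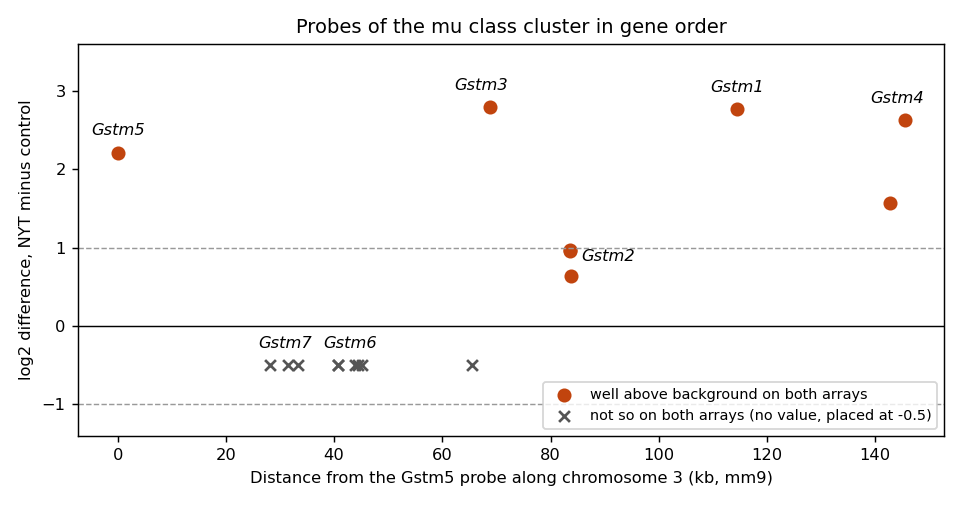
Log2 difference, NYT minus control, of each mu class probe on chromosome 3 against its distance in kb from the Gstm5 probe, with crosses (placed at -0.5, no value) for probes not well above background on both arrays, and without the Gstm1 probe that the files place on chromosome 5. Gstm5, Gstm3, Gstm1 and the higher Gstm4 probe lie between 2.21 and 2.80, and Gstm2, between Gstm3 and Gstm1, lies at 0.97 or below.

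Gstp1, the pi class enzyme and the main form in many blood and epithelial cells, was lower on the NYT array by both of its probes. They read 7471 and 3788 in the control and 1142 and 620.3 with NYT, differences of -1.69 and -1.59. Gstp2, its close copy, differed by -1.34 and -1.47, and Gstp3, detected on the control array alone, was lower with NYT by at least 2.35-fold. The pi class probes thus all pointed the same way, with the overlap in sequence shown above.

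Gstt1, a theta class enzyme, gave values that depended on the probe. The probe listed for its RefSeq transcript (chromosome 10, 75246560 to 75246619, mm9) read 962 in the control and 77.4 with NYT, a difference of -2.62. The probe listed for an Ensembl transcript (75259864 to 75259923) read 243 and 120.2, a difference of 0.01. The mean over both was -1.31, and with normexp background correction the first probe differed by -1.74. The first 30 bases of each are shown because the result turns on which one is read.
Gstt1 A_55_P2024841: actataatcactactttccccttgagtctg
Gstt1 A_55_P2019214: tatcagagacccccagtgttctcctccctc
Its neighbours Gstt2 and Gstt3 differed by 0.01 and -0.02, so as scaled the RefSeq probe of Gstt1 was the only theta class probe past 2-fold among those detected on both arrays. Before scaling, the control intensity was 2.02 times the NYT intensity for the Ensembl probe of Gstt1, 2.01 times for Gstt2 and 2.05 times for Gstt3, all just past 2-fold lower. Gsto1, the omega class enzyme that reduces dehydroascorbate, read 20103 and 17941 by its single probe (chromosome 19, 47939128 to 47939187, mm9). This is a difference of 0.85 as scaled, and -0.16 without scaling and -0.32 when scaled to spike-in RNA. Gsto2 differed by 1.42.

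**Figure D3:**
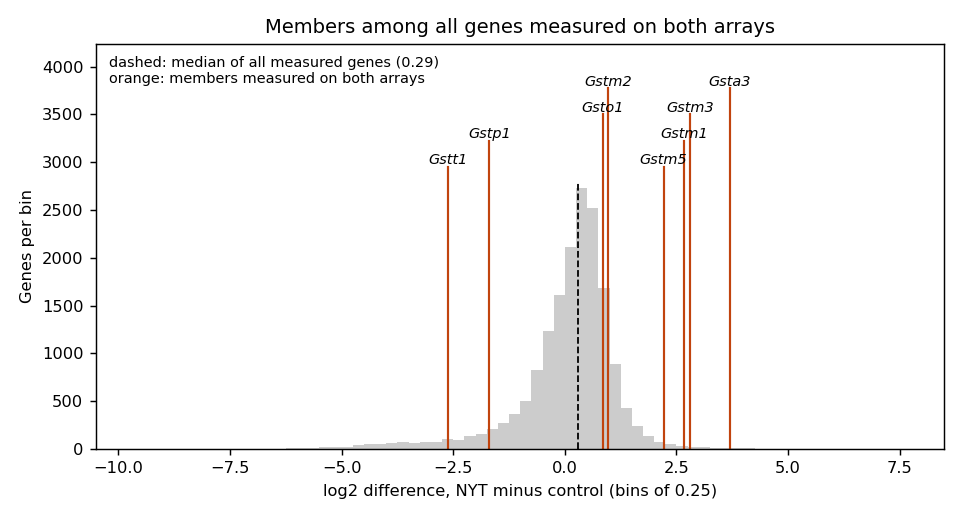
Histogram of the log2 differences of the 16996 genes measured on both arrays, in bins of 0.25, with the 8 measured members as orange lines and the median of all genes, 0.29, dashed. Gsta3, Gstm3, Gstm1 and Gstm5 stand in the upper tail from 2.21 to 3.70, Gstp1 and Gstt1 in the lower tail at -1.69 and -2.62, and Gstm2 and Gsto1 under 1.

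The calls of these members were the same in each setting that was run. Gsta3, Gstm1, Gstm3 and Gstm5 were higher by 2-fold or more, and Gstp1 and Gstt1 lower by 2-fold or more, under all 10 alternative settings of scaling, background, source and filter and with the mean over probes. As scaled all 6 also passed 3-fold, where 507 of all 16996 measured genes were higher and 1167 lower. The values nearest to 0 were 1.03 for Gstm5 and 1.49 for Gstm1, both with spike-in scaling, and -1.31 for Gstt1 with the mean over probes. Gsta3 ranged from 2.52 to 3.71. With no filter on dim probes and with the other detection flag, the values of all 6 were those of the main setting. Those settings therefore could not change a call. The call of Gstt1 is lost where its Ensembl probe is read alone.

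**Figure D4:**
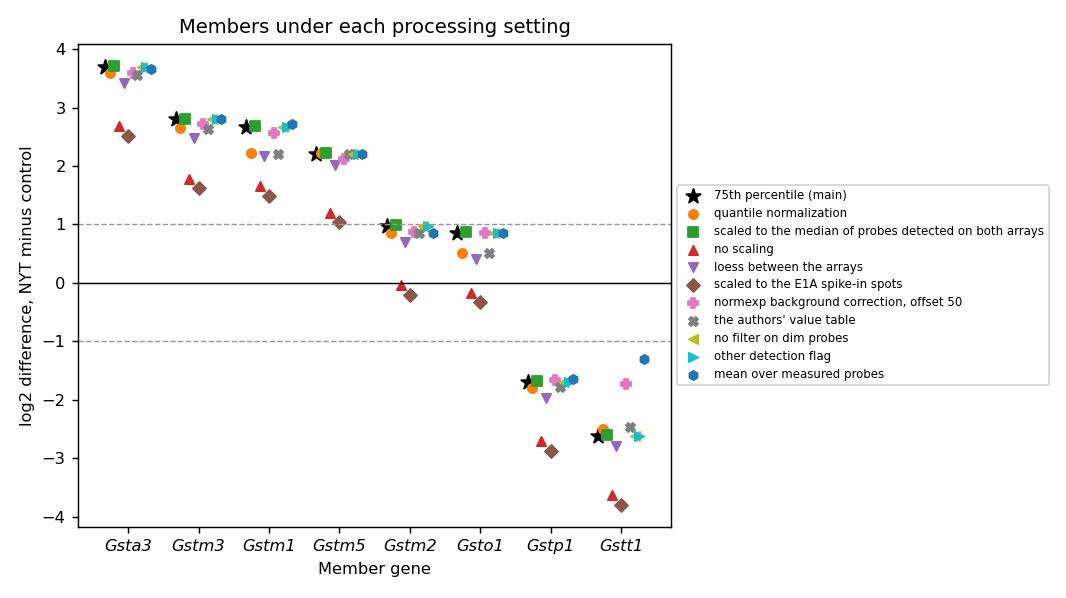
Log2 difference of the 8 measured members under the main setting (stars) and 10 alternatives (other symbols), with dashed lines at 2-fold. Without scaling and with spike-in scaling every point is lower, and Gstm2 and Gsto1 pass below 0, while the 4 higher and 2 lower members stay past the lines.

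Of the other transferases, some were past 2-fold in each direction. Of 10 measured cytosolic and mitochondrial forms outside the 10 members, 3 were higher (Gstm4, Gsto2 and Gstcd, at 1.33 by its brightest probe and 0.55 by another) and 2 lower (Gsta2 and Gstp2), with a median of 0.07. Of all measured genes, 11.2% were higher and 11.0% lower. Without scaling 1 of the 10 was higher and 5 were lower, with a median of -0.94, where 211 of all 16996 measured genes were higher and 6190 lower. Hpgds, the sigma class enzyme that makes prostaglandin D2 and is known from mast cells, differed by -0.16. Of 6 membrane forms and leukotriene enzymes, Mgst3 was higher at 1.75 and the other 5 were under 2-fold as scaled. These included Ltc4s, which makes leukotriene C4, at 0.95, Alox5ap, which presents arachidonate to lipoxygenase, at -0.91, and Ptges, a prostaglandin E synthase, at 0.58 by its brightest probe and -1.21 by another. The intensities of Ltc4s before scaling were 1367 in the control and 1305 with NYT. Without scaling and with spike-in scaling 0 of the 6 were higher and 3 lower, with medians of -0.76 and -0.92. With quantile normalization and after loess 1 was higher and 1 lower. Over all 16996 measured genes, 166 were higher and 7485 lower with spike-in scaling. The counts were 1854 and 1835 with quantile normalization and 950 and 2359 after loess.

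Genes that make glutathione, the co-substrate of these enzymes, were mostly higher as scaled. Of 7 measured, 5 were higher by 2-fold or more and none lower, with a median of 1.30, against 11.2% and 11.0% of all measured genes. Without scaling and with spike-in scaling 1 was higher and 1 lower, with medians of 0.28 and 0.12. Of all 16996 measured genes, 211 were higher and 6190 lower without scaling, and 166 and 7485 with spike-in scaling. Cth, which makes cysteine from cystathionine, went from an intensity of 26.2, close to the lowest detected, to 132, a difference of 3.35. Only this 1 of its 2 probes was detected on both arrays. Slc3a2, the heavy chain of the cystine carrier, differed by 1.82, Gss, glutathione synthetase, by 1.59, and Gclm and Gclc, the subunits of the rate-limiting ligase, by 1.30 and 1.17. Slc7a11, the light chain of the carrier, stood at 0.00 and Cbs at 0.18.

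The enzymes that act after conjugation or recycle glutathione were also counted, and the difference from the lists above was not tested. As scaled, 11.2% of all measured genes were higher and 11.0% lower. Without scaling 211 of all 16996 measured genes were higher and 6190 lower, and with spike-in scaling 166 and 7485. Of 10 measured breakdown genes 1 was higher and 2 lower, with Anpep, a surface aminopeptidase, at 2.19, Ggt5 at -1.65 by its brightest probe and -0.40 by another, Oplah at -1.21 and Dpep3 at -0.69. The median of the 10 was -0.16, and without scaling it was -1.18, with 8 lower. All 6 measured exporters of conjugates were under 2-fold, from Abcc4 at -0.49, Abcg2 at -0.41 and Abcc3 at -0.27 to Abcc1 at 0.31, as scaled. Without scaling 3 of the 6 were lower, with a median of -1.10, and with spike-in scaling 4 were, with a median of -1.26. Of 14 reduction and peroxidase genes none was higher and 2 were lower, Gpx8 at -3.27 and Glrx at -1.08, with a median of 0.61 that was -0.41 without scaling. Gpx7 and Glrx2 stood at 0.90 and 0.80 and Gsr, glutathione reductase, at -0.38.

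Genes of the NRF2 response other than those of glutathione were compared because several transferases are among its known targets. Of 18 measured target enzymes, 10 were higher by 2-fold or more and none lower, against 11.2% and 11.0% of all measured genes, with a median of 1.09. Without scaling 0 were higher and 2 lower, and with spike-in scaling 0 and 3. With quantile normalization 6 were higher and 1 lower, and after loess 5 and 1. Over all 16996 measured genes the counts were 1854 and 1835 with quantile normalization, and 950 and 2359 after loess. In the main setting Osgin1 stood at -0.998, just short of 2-fold lower. The median of the 18 was 0.55 with quantile normalization, 0.53 after loess, 0.07 without scaling and -0.090 with spike-in scaling. Aldh3a1, 1 of the 10, had a difference of 1.13 on its brightest probe and -1.62 on another. Srxn1, sulfiredoxin, led at 1.77, with Akr1b8 at 1.66, Esd at 1.66 and Cbr3 at 1.54. Nqo1, a much used marker of the response, stood at 0.20, and Hmox1, heme oxygenase, at 1.22. Of 9 regulators, Nfe2l1 (2.01) and Sqstm1 (1.23 by its brightest probe and 0.46 by another) were higher as scaled. Nfe2l2, which encodes NRF2, and Keap1, its inhibitor, differed by 0.68 and 0.49. Before scaling the intensity was lower with NYT for both, from 24786 to 19633 for Nfe2l2 and from 6625 to 4604 for Keap1, so the sign of these differences comes from the scaling. Without scaling and with spike-in scaling 0 regulators were higher and 4 lower, with medians of -0.72 and -0.88. Over the 8 lists of related genes, 22 of 80 measured genes were higher and 6 lower as scaled, against 3 and 29 without scaling. Of all 16996 measured genes, 1904 were higher and 1868 lower as scaled, 211 and 6190 without scaling, and 166 and 7485 with spike-in scaling.

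**Figure D5:**
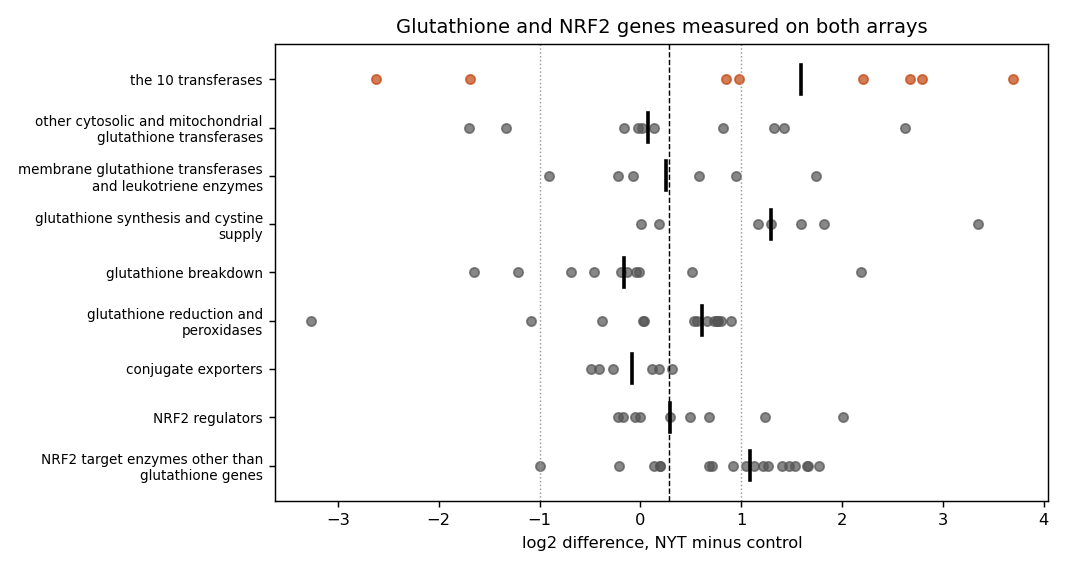
Log2 difference of each gene measured on both arrays, by list, with black bars for list medians, the dashed line at 0.29 for all measured genes and dotted lines at 2-fold. The median of the transferases is 1.59, that of glutathione synthesis 1.30 and that of the NRF2 target enzymes 1.09, and the conjugate exporters all lie under 2-fold as scaled.

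The promoters of 9 of the 10 members are in the RefSeq table (assembly GRCm38.p6), as windows from 250 bases before to 50 after the start of the gene. They were searched on both strands for TGACNNNGC, the core of the antioxidant response element through which NRF2 acts. It was found in 2 of the 9, Gsta3 at 121 bases and Gstm5 at 42 bases before the start, and in 14.0% of the 26994 genes of the table. Both stretches are shown, with the match in capitals, because they are the only matches among the 9.
Gsta3 promoter (chr1:21240434-21240502, GRCm38.p6, plus strand): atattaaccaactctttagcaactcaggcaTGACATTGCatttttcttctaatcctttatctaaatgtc
Gstm5 promoter (chr3:107895782-107895850, GRCm38.p6, plus strand): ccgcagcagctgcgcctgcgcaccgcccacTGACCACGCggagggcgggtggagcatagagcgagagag
The windows of Gstm1 and Gstm3, which were higher like Gsta3 and Gstm5, hold no match to these letters. Nor do those of Gsta1, Gstp1 and Gstt1, which were lower, or of Gstm2 and Gsto1, which were under 2-fold. A match is a description of the sequence only.

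Marker RNA of several cell types differed between the arrays, and its part in the transferase differences was not tested. The leukocyte markers Ptprc, Laptm5 and Coro1a were detected on both arrays. All 6 mast cell and basophil markers were detected in the control and 4 with NYT, and their summed level, as a multiple of the array's 75th percentile intensity, was 32.8 and 0.59. The summed level went from 71.8 to 5.68 for 5 eosinophil markers, from 274 to 31.2 for 5 megakaryocyte markers, from 655 to 309 for 7 neutrophil markers, from 16.8 to 4.75 for 5 T and NK cell markers (4 detected with NYT), and from 15.5 to 5.07 for 7 stromal and endothelial markers (5 detected with NYT). Of these last, Lepr was 2.56-fold higher with NYT, whereas Col1a1, Col1a2, Cxcl12 and Pecam1 were lower. Of the eosinophil markers, Il5ra differed by 0.90 as scaled. The summed level was 9.83 and 10.5 for 5 B cell markers, of which Ebf1 was 2.08-fold lower. It was 264 and 271 for 5 monocyte and macrophage markers (1 higher and 3 lower by 2-fold or more), and 66.7 and 67.8 for 5 dendritic cell markers. All these sums are relative to 75th percentile intensities of 1475 in the control and 728 with NYT. Near-equal sums therefore stand for a lower summed intensity with NYT. Among the dendritic cell markers Siglech was at a level of 5.71 and 6.01 on the log2 scale and made up most of the sum. Its value rests on the only 1 of its 3 probes detected on both arrays. Itgax was 4.45-fold lower with NYT and Xcr1 was dim in both cultures. Liver cell markers, given because alpha and mu transferases are abundant in liver, were near background: Alb, Ttr and Apoa1 on both arrays, with Serpina1a detected on the NYT array alone at an intensity of 25.9. Of 4 adipocyte markers, Adipoq, Plin1 and Lep were dim in both cultures, and Fabp4, which macrophages also express, differed by 1.50.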

How the data were processed

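RNA of 2 cultures, 1 per group by the treatment in the labels, was hybridised to 1-colour arrays. The labels and the design text name different RNA extraction kits. The authors deposited spot intensity as scanner output. Per the file headers the software was Feature Extraction 10.7.1.1 from Agilent, against 9.5.1.1 per the submitters' processing notes. The authors' processed signal was detrended within each array and not scaled between arrays, per the file headers, which also give probe coordinates on mm9. The authors also deposited a value table, which holds linear intensity with equal quartiles in both columns. How that table was made is not given in the sources here. Its counts over all measured genes, 1863 higher and 1812 lower, were close to the 1854 and 1835 of quantile normalization.

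Control spots and outlier spots were left out. Log2 processed intensity was averaged per probe, less the 75th percentile of its array. Probes with over 50% of spots flagged by the scanner software as well above background counted as detected. Each gene took the value of the brightest probe detected on both arrays, and a gene detected on 1 array got a bound against the lowest detected signal of the other, or the dim probe's own where higher. Names came from RefSeq (GRCm38.p6) by accession for 26761 probes, symbol for 3814 and synonym for 639, and 8215 kept the files' name. All 17 member probes had the same name by both routes.

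No test was possible with 1 array for each group. A 2-fold difference was called. All 10 members are named with every probe. From each other list up to 4 genes with the largest difference are named, and those detected on 1 array at a bound of 2-fold. Others were chosen after their values were seen (Gstcd, Hpgds, Gclc, Slc7a11, Cbs, Gsr, Nqo1, Hmox1, Aldh3a1, Osgin1 and the other relatives of the members). The members and lists were chosen with earlier results of these data known. Python 3.11.15, R 4.3.3 and limma 3.58.1 were used, and the counting step was tested on simulated data. One list of cell markers is not reported here.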

Additional observations from a re-analysis of the deposited data

Results flagged for a closer look

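A signal outside the comparison of genes differed between the arrays. Before scaling, the log2 intensity of the spike-in RNA E1A_r60_a107 was 6.32 in the control and 8.57 with NYT, a difference of 2.25, whereas the 7 other spike-ins well above background on both arrays lay between -0.12 and 0.24. The spike-in scaling of the transferase values above used the median over all 8.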

How the results depend on the processing

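The members higher by 2-fold or more numbered 4 in every setting, and those lower 2, or 3 with no filter on dim probes, where Gsta1 enters with a value below detection. Of all 16996 measured genes, 1904 were higher and 1868 lower as scaled, 211 and 6190 without scaling, and 166 and 7485 with spike-in scaling. The constant counts of members therefore stand against shares of all genes that changed with the scaling. The median of the measured members, 1.59, was 0.58 without scaling, 0.41 with spike-in scaling, 1.36 after loess, 1.49 with normexp, 1.53 in the authors' value table, 1.53 with the mean over probes, 0.91 with no filter on dim probes and 0.97 with the other detection flag. In the last 2 settings more members entered. The 22 higher and 6 lower genes of the other lists became 3 and 29 without scaling and 3 and 34 with spike-in scaling. They became 10 and 3 at 3-fold, where the threshold itself is the cause. At that threshold 507 of all 16996 measured genes were higher and 1167 lower. The median of the NRF2 target enzymes turned to -0.090 with spike-in scaling. The cause was not tested for the other changes. The bound for Gsta1, 4.68 on the log2 scale, was 2.75 with normexp. All settings were listed with earlier results known. No paired analysis was possible because a single array stands for each group. For the same reason neither array could be left out.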
